A study of Homo sapiens with 8 samples.

Results

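The shared effect of cisplatin resistance was measured as the change that 2 cisplatin-resistant clones had in common against their parental cells. All 8 libraries of the series entered the comparison, 4 resistant against 4 parental, with the cell line as a block and resistance as the tested term. UPCISCC89 (SCC89) is an HPV− squamous cell carcinoma line of the head and neck and UDSCC2 (SCC2) an HPV+ one. HPV is human papillomavirus. Each line gave 2 libraries of parental cells and 2 of its resistant clone, which was #411 for UPCISCC89 and #35 for UDSCC2. The labels name no engineered allele, and low-glucose DMEM was used throughout. Resistance was raised by prolonged exposure to escalating cisplatin. Single-cell clones were then picked under a high dose, which was higher for the HPV+ line, so dose and HPV status cannot be told apart, and they were kept in drug-free medium afterwards. With 1 clone per line, traits of a clone and traits of resistance cannot be told apart within a line. Whether libraries of the same group came from separate cultures is not given in the sources used here, so the p-values cover the spread among libraries only, and this may be technical.

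Cisplatin is a platinum drug that crosslinks DNA bases. Cells are known to survive it by taking up less drug, binding it to thiols, repairing or bypassing the lesions, or failing to undergo apoptosis, and resistant carcinoma lines are also known for changes in differentiation and metabolism. Squamous epithelium renews itself from basal cells that make keratins 5 and 14 and anchor to the basement membrane, and switches to other keratins, among them keratin 10, as its cells leave the basal layer.

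Libraries held 20250246 to 27341284 estimated counts. Epithelial markers (KRT5, KRT14, TP63, EPCAM, CDH1, DSG3, KRT17 and KRT6A), not all of them specific to squamous epithelium, were detected in all 8 libraries. Of 19 markers of other cell types, TYROBP, KDR and TYR were among those with 0 counts in every library. DCN and LUM, which mark fibroblasts, reached 100 to 294 CPM (counts scaled to the library total) in the HPV+ parental libraries and 21.3 to 96 in the HPV+ resistant ones, and were at 0 or 0.149 CPM in the HPV− libraries. The other fibroblast markers were low in the HPV+ parental libraries. There COL1A1 had 6.56 and 5.94 CPM, COL1A2 0.474 and 0, PDGFRA 0 and 0.115, and PDGFRB 0 and 0. In the HPV− resistant libraries COL1A1 had 8.63 and 7.28 CPM. Across both lines the resistant libraries had more counts in pseudogenes (0.624 to 0.783% against 0.403 to 0.463%) and fewer transcripts with reads (66493 to 77351 against 77983 to 82091). CD14, a marker of monocytes, was itself called higher, going from 7.26 and 3.92 to 19.4 and 12.8 CPM and from 0.118 and 0.0378 to 0.317 and 0.542 CPM (TMM-scaled), while TYROBP was at 0 and PTPRC at most at 0.166 CPM. The part of these features in the results was not tested.

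A gene was called shared when its fold change between resistant and parental cells exceeded 1 on the log2 scale at a Benjamini-Hochberg adjusted p under 0.05 in edgeR's quasi-likelihood test, and when both resistant libraries lay on that side of both parental libraries in each line. Of 15221 genes tested, 229 (1.5%) were higher and 232 (1.52%) were lower in both clones, 461 (3.03%) in all. Without the demand for separated libraries the test called 279 higher and 290 lower, so 50 and 58 genes passed while the libraries of at least 1 line overlapped or moved the other way. With upper-quartile factors the split was 282 higher and 185 lower. At the edge of the fold threshold lay DYNLT2B, with a log2 fold change of −1, and TSPOAP1 just outside it with 0.9994. At the edge of the adjusted p lay INPP5J with 0.0496, and C1S outside it with 0.0523.

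The definition fixes the direction of these genes, but not how large the change was in each line. Taken alone, the HPV− clone had 923 genes higher (6.06%) and 795 lower (5.22%), and the HPV+ clone had 518 (3.4%) and 700 (4.6%). Among shared higher genes, 125 exceeded a log2 fold change of 1 in both lines, 65 did so in the HPV− line alone and 39 in the HPV+ line alone. For lower genes these numbers were 127, 60 and 45. Fitted with 1 coefficient per group, 74 of the higher and 87 of the lower genes passed both thresholds in each of the lines. The change differed between the lines at an adjusted p under 0.05 (interaction) in 37 higher and 40 lower genes, against 2546 (16.7%) of all genes tested. Protein-coding genes made up 213 and 227 of the lists, and 13 of the higher genes were pseudogenes. The 2 lists also differed in the transcripts they held: median transcript length was 3024 bases in higher and 1375 in lower genes against 2352 over all genes tested, and median GC content 48.3% and 55.8% against 49.5%.

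How far the counts shifted depended on which single library was left out, and not every such fit is listed here. Leaving out replicate 1 gave 84 higher and 99 lower genes when it was taken from UPCISCC89, 77 and 94 when taken from clone #411, and 74 and 138 when taken from UDSCC2. Leaving out replicate 2 gave 129 and 204 for UDSCC2, 148 and 168 for clone #35, and 174 and 340 for UPCISCC89. Each of these fits has 1 sample fewer.

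**Figure D1:**
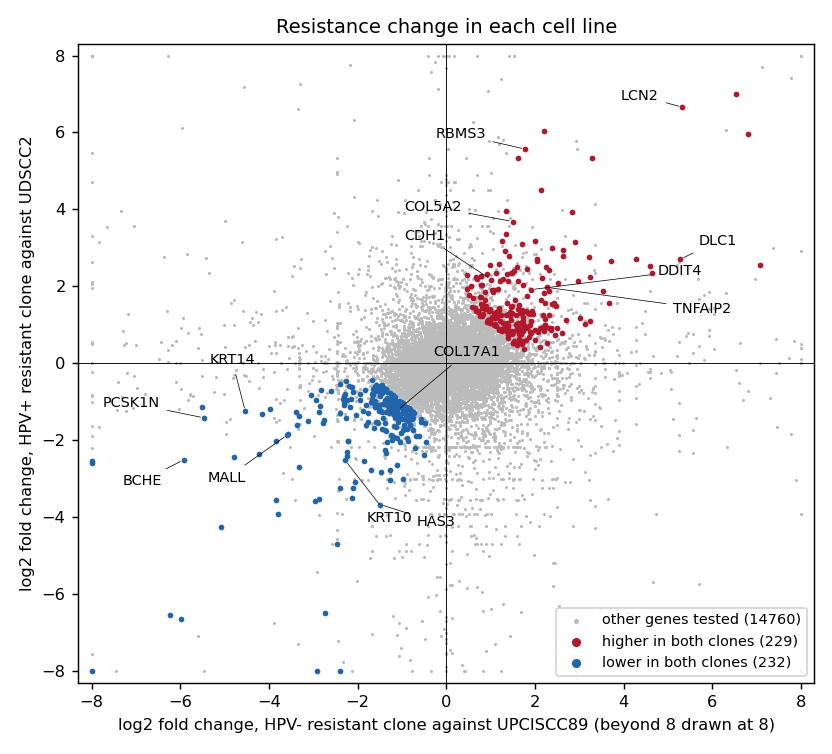
Log2 fold change of each gene tested in the HPV− clone against UPCISCC89 (x axis) and in the HPV+ clone against UDSCC2 (y axis), each point a gene, values beyond 8 drawn at 8. The 229 genes higher and 232 genes lower in both clones (red, blue) lie in the upper right and lower left of the plot, which the definition fixes, and many sit far from the diagonal.

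Among the 106 named genes called in both clones, the call of LCN2, CFI, TNFAIP2, DDIT4 and KRT10 was kept under each of the 17 alternatives in which every named gene was refitted. For these 5 the promoter is shown, as the members whose shared change depended least on those settings. Each line is the 250 bases before the start of the gene in RefSeq (GRCh38.p14), 5′ to 3′ on the strand of the gene, and capitals mark matches to the motifs named after them. Gene intervals given elsewhere are those of GENCODE 44. Its outermost start lies upstream of the RefSeq start for 4 of the genes, so the stretches of LCN2 and TNFAIP2 lie within the GENCODE interval and those of CFI and DDIT4 overlap it.
LCN2 (chr9:128149203-128149452, plus strand): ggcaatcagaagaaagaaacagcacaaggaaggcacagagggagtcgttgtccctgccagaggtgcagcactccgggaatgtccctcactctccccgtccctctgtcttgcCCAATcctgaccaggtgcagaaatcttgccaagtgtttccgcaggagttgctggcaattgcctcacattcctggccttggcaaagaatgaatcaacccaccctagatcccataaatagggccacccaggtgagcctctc
CFI (chr4:109802000-109802249, minus strand): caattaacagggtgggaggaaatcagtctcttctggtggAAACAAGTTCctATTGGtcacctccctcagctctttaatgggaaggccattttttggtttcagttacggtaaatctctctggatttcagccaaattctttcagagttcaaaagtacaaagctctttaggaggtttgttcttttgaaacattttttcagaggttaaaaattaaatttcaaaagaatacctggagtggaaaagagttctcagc
TNFAIP2 (chr14:103123211-103123460, plus strand): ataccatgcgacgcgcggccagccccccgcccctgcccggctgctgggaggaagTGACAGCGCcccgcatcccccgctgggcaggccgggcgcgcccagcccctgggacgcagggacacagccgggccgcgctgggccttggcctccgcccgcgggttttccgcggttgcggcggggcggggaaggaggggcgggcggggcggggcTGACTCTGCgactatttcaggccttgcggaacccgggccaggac
DDIT4 (chr10:72273674-72273923, plus strand): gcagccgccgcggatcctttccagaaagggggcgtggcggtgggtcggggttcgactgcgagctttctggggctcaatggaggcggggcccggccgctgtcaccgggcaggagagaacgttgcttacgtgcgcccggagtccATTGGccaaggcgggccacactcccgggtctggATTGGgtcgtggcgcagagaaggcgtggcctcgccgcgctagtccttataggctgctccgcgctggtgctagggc
KRT10 (chr17:40822615-40822864, minus strand): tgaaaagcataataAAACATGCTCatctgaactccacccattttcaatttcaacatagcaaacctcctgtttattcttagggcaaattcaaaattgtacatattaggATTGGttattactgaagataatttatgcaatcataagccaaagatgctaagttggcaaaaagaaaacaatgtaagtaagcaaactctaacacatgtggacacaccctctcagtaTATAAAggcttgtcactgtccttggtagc
Motifs were searched on both strands. For the transcription factor AP-1 the letters were TGACTCA. For the antioxidant response element they were TGACNNNGC, which can overlap an AP-1 match. The E-box was searched as CACGTG and the core promoter's TATA box as TATAAA. The p53 motif and the CCAAT box complete the set. A CCAAT box lay 139 bases before the start of LCN2, and DDIT4 had a pair of them, 108 and 75 bases before. CFI had a p53 motif at 211 and a CCAAT box at 199. TNFAIP2 had antioxidant response elements at 196 and 44. KRT10 had a p53 motif at 236, a CCAAT box at 143 and a TATA box at 29. Such matches are common. Over the 11364 genes tested with a promoter in the table, 34.8% held a CCAAT box, 11.7% an antioxidant response element, 8.66% an E-box, 5.83% a TATA box, 4.7% a p53 motif and 2.77% AP-1. Among 164 higher genes the shares were 28, 7.32, 6.71, 8.54, 5.49 and 1.83%, and among 166 lower genes 37.3, 12, 7.23, 12, 9.04 and 4.22%.

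LCN2 (chr9:128149071-128153453) encodes a secreted lipocalin that binds iron-carrying siderophores. It had 0.214 and 0.135 CPM in parental libraries and 3.27 and 10.9 in the clone for the HPV− line, and 0.354 and 0.566 against 32.8 and 61.5 CPM for the HPV+ line. All 4 resistant libraries were far above their parental libraries, which were near 0 in both lines. The shared log2 fold change was 6.23 (SE 0.55, adjusted p = 0.00338, edgeR), the largest among the named higher genes.

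TNFAIP2 (chr14:103121476-103137439), a gene induced by tumour necrosis factor, had 28.4 and 25.8 CPM in parental libraries and 135 and 126 in the clone for the HPV− line, and 0.157 and 0.0755 against 0.436 and 0.504 CPM for the HPV+ line. The ratio was alike in the 2 lines (2.27 and 1.98 on the log2 scale), while the levels lay far apart, and both HPV+ groups were below 1 CPM. The shared log2 fold change was 2.22 (SE 0.16, adjusted p = 0.00194).

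DDIT4 (chr10:72273919-72276036) encodes REDD1, a stress-induced inhibitor of mTORC1. It had 99.6 and 82 CPM in parental libraries and 319.9 and 362 in the clone for the HPV− line, and 136 and 143 against 404 and 647 CPM for the HPV+ line. It was expressed at similar levels in both lines. It rose by nearly the same log2 fold change, 1.91 in the HPV− and 1.92 in the HPV+ line (shared value 1.91, SE 0.16, adjusted p = 0.00253). It was the sole called member of 55 tested genes of the integrated stress and unfolded protein response (1.82%, against 1.5% of all genes higher).

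CFI encodes complement factor I, a protease that cuts C3b and C4b. It had 10.7 and 10.5 CPM in parental libraries and 134 and 62.7 in the clone for the HPV− line, and 0.157 and 0.378 against 1.9 and 1.82 CPM for the HPV+ line, a shared log2 fold change of 3.08 (SE 0.30, adjusted p = 0.00441). The files hold 70% of its annotated transcripts, so its level is uncertain.

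KRT10 (chr17:40818117-40822614), the keratin of suprabasal cells, had the smallest p of all genes tested. It had 129 and 101 CPM in parental libraries and 22.2 and 25.2 in the clone for the HPV− line, and 330.1 and 315 against 63.2 and 49.2 CPM for the HPV+ line. The log2 fold change was about the same in each line (−2.28 and −2.52). In the shared term KRT10 fell by 2.40 on the log2 scale (SE 0.14, adjusted p = 0.000691).

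**Figure D2:**
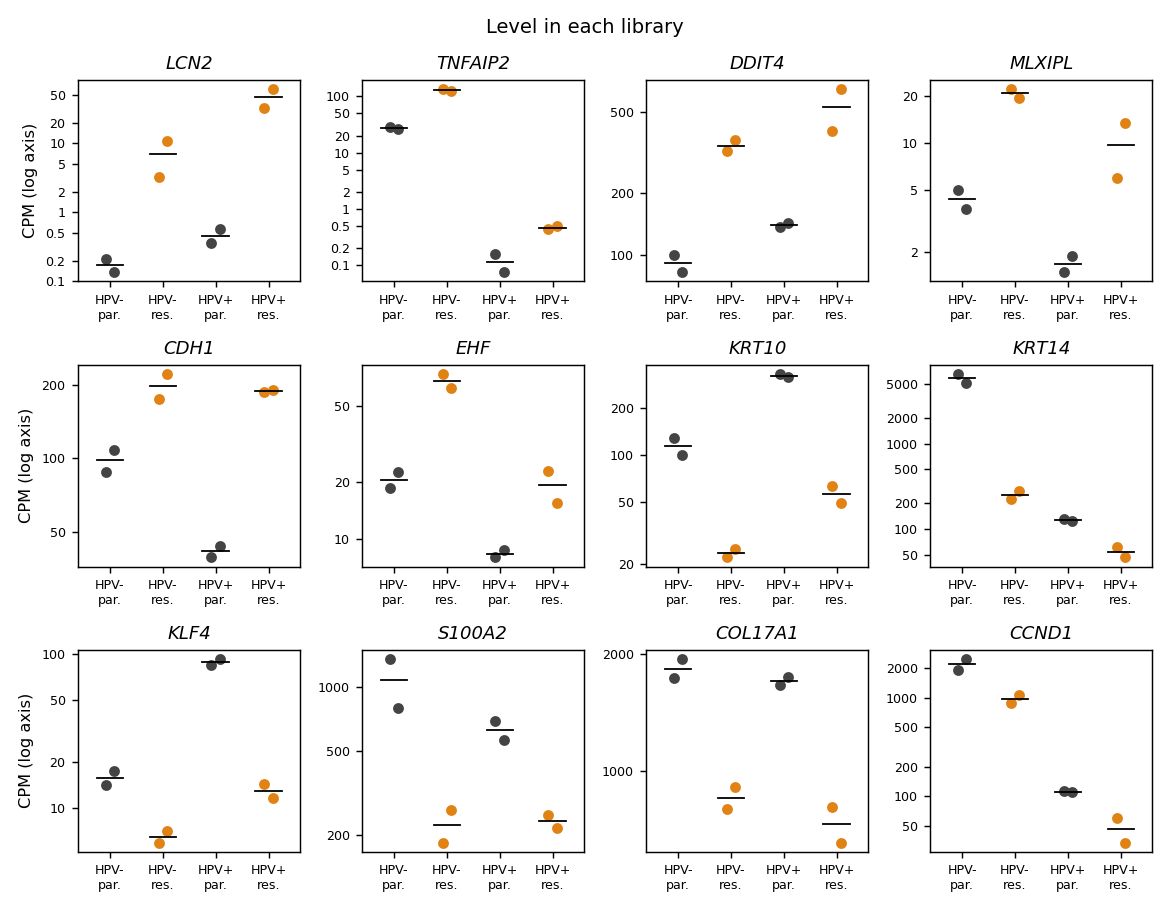
CPM in each of the 8 libraries for 12 genes called in both clones (log axis, TMM-scaled), with parental libraries (par.) in grey, resistant libraries (res.) in orange and the mean of the 2 libraries of a group as a line. In each line both resistant points lie on the same side of both parental points, as the call requires. Levels differ between the lines, as for KRT14 with 6547 and 5121 CPM in HPV− and 131 and 123 CPM in HPV+ parental libraries.

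Several other genes called higher had large increases. DLC1, a GTPase-activating protein, had 0.267 and 0.586 CPM in parental libraries and 18.2 and 15.9 in the clone for the HPV− line, and 0.472 and 0.793 against 5.59 and 2.75 CPM for the HPV+ line (log2 fold change 3.95, SE 0.60, adjusted p = 0.0115). The larger ratio was in the HPV− clone. RCSD1, a protein that binds the actin capping protein, went from 0.214 and 0.406 to 5.29 and 10.5 CPM in the HPV− line and stayed under 1 CPM in the HPV+ line (0.0786 and 0.0755 against 0.476 and 0.349). CAVIN2, a coat protein of caveolae, went from 0.267 and 0.811 to 6.65 and 6.18 CPM and from 1.57 and 1.55 to 6.15 and 5.31 CPM (2.65, adjusted p = 0.0143). MLXIPL encodes ChREBP, a glucose-responsive transcription factor. It had 4.97 and 3.79 CPM in parental libraries and 22.1 and 19.2 in the clone for the HPV− line, and 1.49 and 1.89 against 5.95 and 13.4 CPM for the HPV+ line, a log2 fold change of 2.37 (SE 0.28, adjusted p = 0.00656).

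Some of the largest shared increases were uneven. RBMS3, an RNA-binding protein, went from 0.481 and 0.766 to 2.12 and 2.24 CPM in the HPV− line and from 0.472 and 0.227 to 21.4 and 12 CPM in the HPV+ line (3.71, adjusted p = 0.0272, call kept under 10 of 17 alternatives). STC1, a secreted glycoprotein hormone, reached 3.32 and 5.68 CPM in the HPV− clone from 0.855 and 1.08, and 1.07 and 2.17 CPM in the HPV+ clone. Its HPV+ parental libraries held 1 count against 83 in the clone, a ratio of 88.5 with an exact 95% counting interval from 15.5 to 3540. The growth factor gene FGF5 went from 0 and 0.18 to 0.504 and 0.299 CPM in the HPV− line and from 0.865 and 0.529 to 8.56 and 4.07 CPM in the HPV+ line (2.81, adjusted p = 0.0267, kept under 9 of 16). RPL36A-HNRNPH2, a read-through of 2 neighbouring genes, also passed (2.55, adjusted p = 0.0412), but it shares reads with both, so its value is uncertain.

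Of 73 genes of epidermal differentiation tested, 1 (1.37%), LCN2, was higher and 8 (11%) were lower, against 1.5 and 1.52% of all genes. The lower ones were KRT14, KRT10, KLF4, S100A2, S100A4, S100A10, S100A16 and GRHL1. The list had a median log2 fold change of −0.50 against 0.03 over all genes, but its medians were −1.23 in the HPV− and 0.20 in the HPV+ line, of opposite sign. With 1 library left out, 4 to 7 members were lower.

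KRT14, the basal partner of keratin 5, was the most uneven. It had 6547 and 5121 CPM in parental libraries and 222 and 282 in the clone for the HPV− line, and 131 and 123 against 61 and 46.3 CPM for the HPV+ line. The level fell by 4.54 in the HPV− and by 1.25 in the HPV+ line on the log2 scale (adjusted p of the difference 9.55e-05). The shared value was −2.90 (SE 0.73, adjusted p = 0.0453), and the call was kept under 5 of 17 alternatives. KRT14 shares sequence with other keratins, whose reads Salmon splits by estimate. KLF4, a transcription factor of the epidermal barrier, had 14.2 and 17.4 CPM in parental libraries and 5.99 and 7.08 in the clone for the HPV− line, and 85.2 and 92.3 against 14.4 and 11.7 CPM for the HPV+ line (−2.04, SE 0.30, adjusted p = 0.0108). Here the larger fall was in the HPV+ line (adjusted p of the difference 0.00357).

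The calcium-binding S100 proteins S100A2 and S100A16 fell together. S100A2 had 1350 and 795 CPM in parental libraries and 185 and 264 in the clone for the HPV− line, and 688 and 564 against 249.8 and 216 CPM for the HPV+ line (−1.84, SE 0.25, adjusted p = 0.00828). S100A16 went from 344 and 286 to 151 and 145 CPM and from 752 and 684 to 353 and 325 CPM, a log2 fold change of −1.09 and −1.08 in the 2 lines. S100A4 went from 43 and 34.9 to 8.53 and 6.36 CPM in the HPV+ line and from 3.37 and 2.16 to 2.06 and 1.79 CPM in the HPV− line, where the change was smaller (adjusted p of the difference 0.00771), with a call kept under 6 of 17 alternatives.

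Adhesion genes went both ways. COL17A1, the hemidesmosomal collagen that holds basal cells to the basement membrane, was abundant in both parental lines. It had 1731 and 1941 CPM in parental libraries and 795 and 910.4 in the clone for the HPV− line, and 1665 and 1741 against 806 and 653 CPM for the HPV+ line (−1.17, SE 0.13, adjusted p = 0.00519), with log2 fold changes of −1.11 and −1.22 in the lines. Of 50 junction genes, TJP3, CDH1 and PANX2 were higher (6%, against 1.5% of all genes) and GJB5 and PKP1 lower (4%, against 1.52%). The calls of TJP3, at a mean of 0.727 CPM, and PANX2 were kept under only 6 of 16 and 7 of 17 alternatives. Those of CDH1, GJB5 and PKP1 were kept under 16, 16 and 12 of 17. CDH1, which encodes E-cadherin of the adherens junctions, had 87.8 and 108 CPM in parental libraries and 174 and 221 in the clone for the HPV− line, and 39.3 and 43.9 against 186 and 189.7 CPM for the HPV+ line (1.59, SE 0.24, adjusted p = 0.0109). All resistant libraries were above all parental libraries of both lines, and the rise was larger in the HPV+ line (2.18 against 1.01, adjusted p of the difference 0.00753). GJB5, a connexin, fell from 34.1 and 22.9 to 8.51 and 11.2 CPM and from 8.92 and 7.25 to 2.42 and 3.1 CPM (−1.53 and −1.55). PKP1, a desmosomal plaque protein, fell from 475 and 545 to 111 and 122 CPM in the HPV− line and from 584 and 602 to 424 and 347 CPM in the HPV+ line, where the ratio was smaller (adjusted p of the difference 0.00157).

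Of 36 transcription factors of epithelial lineages, EHF, GATA3 and SOX9 were higher and KLF4, ID2 and GRHL1 lower. That is 8.33% each way, against 1.5% of all genes higher and 1.52% lower. EHF, an epithelial ETS factor, had 18.6 and 22.6 CPM in parental libraries and 73.8 and 62.3 in the clone for the HPV− line, and 8.02 and 8.76 against 23 and 15.5 CPM for the HPV+ line (1.46, SE 0.18, adjusted p = 0.00724). GATA3 was low throughout, going from 0.748 and 1.49 to 5.34 and 2.69 CPM in the HPV− line and from 0.904 and 1.4 to 3.73 and 4.11 CPM in the HPV+ line. Its log2 fold changes in the lines were almost equal (1.83 and 1.76). SOX9 was below 1 CPM in HPV+ parental cells (0.354 and 0.604) and at 2.5 and 1.94 CPM in their clone, and went from 19.1 and 26.9 to 37.3 and 37.3 CPM in the HPV− line. ID2, an inhibitor of helix-loop-helix factors, fell from 21.9 and 16.1 to 4.48 and 10.4 CPM and from 29.6 and 30.2 to 9.28 and 5.23 CPM. Of these, the calls of GATA3, SOX9 and GRHL1 were kept under 10 of 16, 8 of 17 and 5 of 17 alternatives.

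The respiratory chain passes electrons to oxygen through complexes I to IV, and ATP synthase uses the resulting proton gradient. Of 79 nuclear genes tested for the respiratory chain and ATP synthase, 0 were higher and 13 (16.5%) lower in both clones, against 1.5 and 1.52% of all genes. The number lower was 6 with upper-quartile factors, 2 with the call made in each line on its own, and 0 both with the replicate block and when the test itself required a log2 fold change beyond 1. An unadjusted p under 0.05 was reached by 0 higher and 64 lower genes, and DESeq2 called 0 and 11. In 59 of the 79 both resistant libraries were below both parental libraries in each line (74.7%, against 12.9% of all genes), and 50 had an adjusted p under 0.05. The median log2 fold change was −0.71 (−0.67 in the HPV− and −0.65 in the HPV+ line) against 0.03 over all genes tested, and it ran from −0.77 to −0.47 over the alternatives.

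Summed over the 79 genes, the level was 18740 and 13868 CPM in UPCISCC89 against 9391 and 10202 in its clone. It was 16080 and 14942 CPM in UDSCC2 against 10070 and 9705 in its clone. Replicate 1 of UPCISCC89 stood highest. The number of members lower depended on the library left out, and not every such fit is given here. With replicate 1 of UPCISCC89 left out 3 members were lower, with that of clone #411 it was 5, and with that of UDSCC2 it was 7. With replicate 2 of clone #35 left out 6 were lower, and with replicate 2 of UPCISCC89 it was 26.

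The 13 lower members belong to complexes I, III and IV and to ATP synthase. They were NDUFB2, NDUFB9 and NDUFA1 of complex I, CYC1, UQCRQ and UQCR11 of complex III, COX7A2, COX6C and NDUFA4 of complex IV, and ATP5ME, ATP5MF, ATP5MK and ATP5MG of ATP synthase. CYC1, the cytochrome c1 subunit, had 764 and 433 CPM in parental libraries and 174 and 225 in the clone for the HPV− line, and 529.7 and 411 against 220.2 and 219.5 CPM for the HPV+ line (−1.34, SE 0.21, adjusted p = 0.0122). COX6C had 403 and 294 CPM in parental libraries and 158 and 147 in the clone for the HPV− line, and 276 and 281 against 167 and 143 CPM for the HPV+ line (−1.02, SE 0.14, adjusted p = 0.00941). NDUFB2 had 200.1 and 110.4 CPM in parental libraries and 65.4 and 84.2 in the clone for the HPV− line, and 96 and 77 against 33.9 and 34.4 CPM for the HPV+ line (−1.20, SE 0.20, adjusted p = 0.014). In these 3 genes, as the call requires, no resistant library reached the lower of its parental libraries. COX17, a copper chaperone for complex IV, had 99.2 and 64 CPM in parental libraries and 26.8 and 32.8 in the clone for the HPV− line, and 67.7 and 65.7 against 21.9 and 19.1 CPM for the HPV+ line (−1.58, SE 0.16, adjusted p = 0.00441). COX17 was also the sole called one of 26 genes of platinum transport (3.85%, against 1.52% of all genes lower).

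These genes are short, with a median length of 711 bases, and log2 fold change rose with length across genes (Spearman correlation 0.255 over 15221 genes, which share libraries and are not replicates). Among the 3806 shortest genes, up to 1523 bases, the median log2 fold change was −0.20 (−0.16 and −0.20 in the lines) and 3.39% were lower. Among the 3805 longest, from 3665 bases, it was 0.21 and 0.631% were lower. With a trend on GC content and length taken off each library, the median of the 79 genes was −0.47, and 3 were lower and 0 higher. With the effective transcript length as an offset, the median was −0.67, and 11 were lower and 0 higher.

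**Figure D3:**
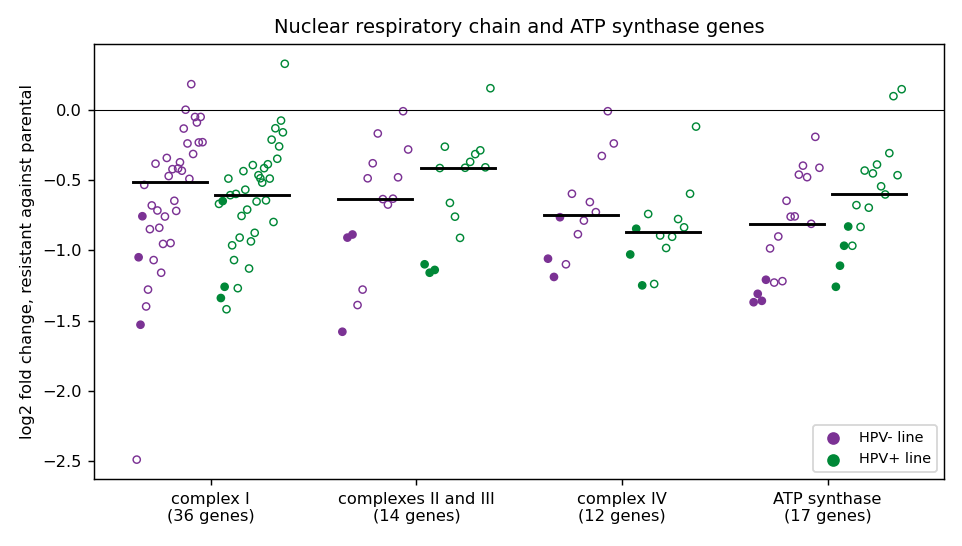
Fold change (log2) of each clone over its parental line for 79 nuclear genes of the respiratory chain and ATP synthase, by complex, in the HPV− line (purple) and the HPV+ line (green), each point a gene, filled where called in both clones, black bars for medians. Most points lie below 0 in both lines, with medians between −0.41 and −0.87.

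For the genes of the mitochondrial genome the values lay above 0. The 13 members had a median of 0.61, which was 1.03 in the HPV− line and 0.19 in the HPV+ line, and it stayed above 0 under every alternative (0.41 to 0.78). MT-ND4L, a complex I subunit, was called higher, with 334 and 488 CPM in parental libraries and 1200 and 707 in the clone for the HPV− line, and 591 and 467 against 1173 and 807 CPM for the HPV+ line (1.06, SE 0.22, adjusted p = 0.0239, kept under 11 of 17 alternatives). Summed over the 13 genes the HPV− line had 19508 and 22685 CPM against 50947 and 34416 in its clone. In the HPV+ line the sums overlapped, with 29466 and 22030 against 32044 and 24144 CPM. Of 75 mitochondrial ribosomal protein genes, 0 were higher and 5 (6.67%, against 1.52% of all genes) lower (MRPL41, MRPS24, MRPL12, MRPL32 and MRPS28), with a median of −0.45 (−0.61 and −0.27). An unadjusted p under 0.05 was reached by 0 higher and 52 lower genes, and DESeq2 called 0 and 5. With the GC content and length trend taken off, 0 were lower.

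Of 96 mitotic genes tested, 0 were higher and 4 (4.17%, against 1.52% of all genes) lower (UBE2S, CENPW, CDC20 and BIRC5), with a median of −0.46 (−0.41 and −0.50). An unadjusted p under 0.05 was reached by 0 higher and 68 lower genes, DESeq2 called 0 and 4, and in 58 (60.4%, against 12.9% of all genes) both resistant libraries were below both parental libraries in each line. CDC20, an activator of the anaphase-promoting complex, had 275 and 234 CPM in parental libraries and 85.5 and 122 in the clone for the HPV− line, and 238 and 253 against 109 and 112 CPM for the HPV+ line (−1.23, SE 0.14, adjusted p = 0.00519). BIRC5, which encodes survivin, had 187 and 198 CPM in parental libraries and 90 and 115 in the clone for the HPV− line, and 204 and 206 against 96.5 and 89 CPM for the HPV+ line (−1.02, SE 0.12, adjusted p = 0.00638). In the parental cells both genes were near equal between the lines, and so were they in the clones. CCND1, which encodes cyclin D1, fell from 1939 and 2472 to 893 and 1074 CPM and from 113 and 109.7 to 59.7 and 33.8 CPM (−1.21, SE 0.19, adjusted p = 0.0122), with more than 10 times the level in the HPV− line. CCNE2 was the sole called one of 52 genes of DNA replication and E2F targets (−1.02, adjusted p = 0.0108). An unadjusted p under 0.05 was reached there by 0 higher and 21 lower genes, and DESeq2 called 0 and 1. In 20 of the 52 (38.5%, against 12.9% of all genes) both resistant libraries were below both parental libraries in each line. Of 44 proteasome genes 0 passed in either direction, where 27 lower and 0 higher genes reached an unadjusted p under 0.05 and DESeq2 called 0 and 0. Of 82 ribosome biogenesis genes 0 passed either, where the same numbers were 25 and 0, and 0 and 0.

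**Figure D4:**
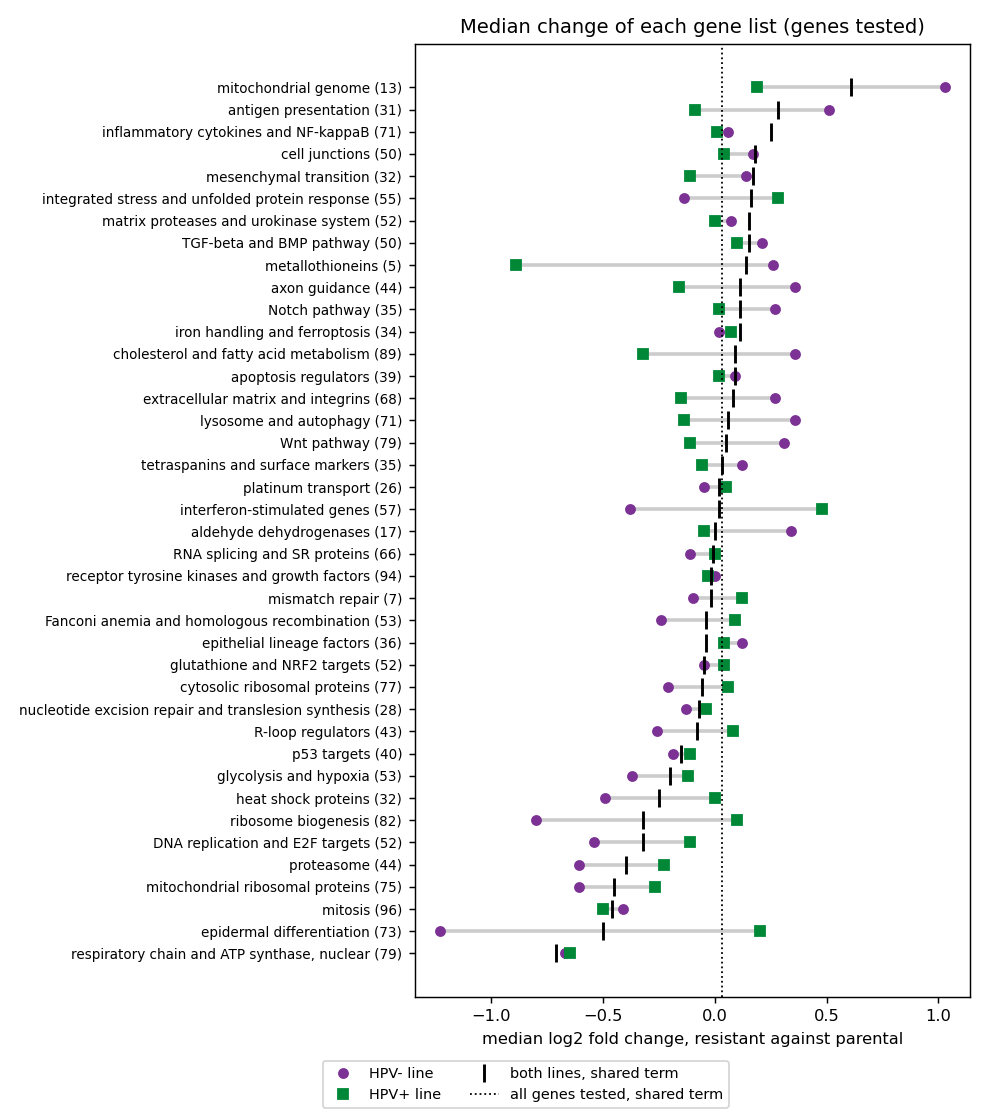
Median over each gene list of the log2 fold change between clones and parental cells, in the HPV− line (purple circle), the HPV+ line (green square) and the term shared by both lines (black bar), with the number of genes tested. Respiratory chain, mitosis, mitochondrial ribosomal proteins and proteasome lie below 0 in both lines, while epidermal differentiation and ribosome biogenesis have medians of opposite sign (−1.23 and 0.20, −0.80 and 0.10).

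The following lists had up to 2 calls in a direction, to be read against 1.5% of all genes higher and 1.52% lower. Heat shock genes (32) had HSPB8 and the co-chaperone BAG1 lower (6.25%), and cytosolic ribosomal proteins (77) had RPS26 and RPL24 lower, a pair whose pseudogene copies make the counts uncertain. Glycolysis and hypoxia genes (53) had STC1 higher and ANGPTL4 lower, where 7 higher and 15 lower genes reached an unadjusted p under 0.05. In 17 of them (32.1%, against 12.9% of all genes) both resistant libraries were below both parental libraries in each line, and in 4 (7.55%, against 12.3%) above. Lipid metabolism (89) had ACSF2 higher and ACADVL lower. Lysosome and autophagy (71) had IDUA higher, and iron handling (34) had LCN2 and the metalloreductase STEAP2 higher (5.88%). Mesenchymal transition (32) had S100A4 and TPM2 lower (6.25%) and 0 higher, where 5 higher genes reached an unadjusted p under 0.05 and DESeq2 called 2. In the next 5 lists 0 genes passed in either direction. Interferon-stimulated genes (57) had 4 higher and 2 lower at the unadjusted threshold, antigen presentation (31) had 6 and 2, axon guidance (44) 8 and 1 and RNA splicing (66) 2 and 15, with 0 DESeq2 calls in each. Tetraspanins and surface markers (35) had 5 and 6, and 1 and 2 by DESeq2.

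Matrix, protease and growth factor genes gave few members in either direction, to be read against 1.5% of all genes higher and 1.52% lower. Of 68 matrix and integrin genes, LAMA4, COL5A2, HSPG2 and COL6A2 were higher (5.88%) and COL17A1 lower (1.47%). COL5A2, a chain of collagen V, had 13.9 and 13.9 CPM in parental libraries and 43.3 and 35.1 in the clone for the HPV− line, and 21.9 and 21.7 against 346 and 215 CPM for the HPV+ line (2.61, SE 0.46, adjusted p = 0.0181). It rose more in the HPV+ line (adjusted p of the difference 0.00135). COL6A2, a chain of collagen VI, went from 16.8 and 12.8 to 32.8 and 44.3 CPM and from 4.99 and 5.1 to 12.7 and 12 CPM. Its log2 fold changes were almost the same (1.38 and 1.29). LAMA4, a laminin chain, went from 0.321 and 0.586 to 3.12 and 3.74 CPM in the HPV− line and had 1 count against 11 in the HPV+ line, a ratio of 11.7 (exact 95% counting interval 1.7 to 505). HAS3, which makes hyaluronan, fell from 10 and 12.4 to 5.04 and 2.94 CPM and from 32.1 and 30.5 to 3.33 and 1.59 CPM (−2.58, adjusted p = 0.0194). Of 52 protease genes the cathepsins CTSS and CTSK and the catalytically inactive ADAM22 were higher, and the collagenase MMP1 lower. In the HPV+ line MMP1 had 9 counts against 1 in the clone (ratio 8.44, interval 1.17 to 370).

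Of 94 receptor tyrosine kinase and growth factor genes, FGF5, SPRY1 and SPRY2 were higher (3.19%, against 1.5% of all genes). IGFBP2, NRG1, EPHB3, FGFBP1 and FGFR2 were lower (5.32%, against 1.52%). NRG1, a ligand of the ERBB receptors, had 208 and 226 CPM in parental libraries and 44.8 and 42.7 in the clone for the HPV− line, and 47.7 and 43.5 against 21.6 and 23.5 CPM for the HPV+ line (−1.67, SE 0.25, adjusted p = 0.0108). EPHB3, an ephrin receptor, had 16.6 and 14.5 CPM in parental libraries and 6.85 and 6.88 in the clone for the HPV− line, and 214 and 209.9 against 59.8 and 52.4 CPM for the HPV+ line (−1.57, SE 0.17, adjusted p = 0.00497). NRG1 fell more in the HPV− line and EPHB3 more in the HPV+ line (adjusted p of the difference 0.00179 and 0.0331). SPRY2, a feedback inhibitor of receptor signalling, rose from 4.43 and 4.73 to 7.61 and 8.43 CPM and from 4.13 and 4.68 to 11.2 and 12.6 CPM (1.12, adjusted p = 0.0176).

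Among the other signalling lists the counts were small, to be read against 1.5% of all genes higher and 1.52% lower. Of 79 Wnt genes, TLE2, LRP4, CELSR3 and VANGL2 were higher (5.06%) and CCND1 lower (1.27%). TLE2 is a corepressor, and CELSR3 and VANGL2 belong to planar polarity. CELSR3 went from 2.72 and 3.47 to 7.66 and 8.53 CPM and from 29.2 and 27.9 to 45.3 and 66 CPM (1.16, SE 0.18, adjusted p = 0.0115). Of 50 TGF-beta and BMP genes, GDF15 and ENG were higher and CHRD and BMP2 lower. BMP2, a ligand, fell from 6.09 and 8.57 to 0.705 and 0.748 CPM and from 76.8 and 71.8 to 29.5 and 28.4 CPM (−2.13, SE 0.36, adjusted p = 0.0156). Of 35 Notch genes MAML3, a coactivator, was higher and the receptor NOTCH3 lower, and the called ones of 71 genes of inflammation included TNFAIP2, which was higher, and CXCL8, IL7R and TNFRSF12A, which were lower. The calls of MAML3 and NOTCH3 were kept under 7 of 16 and 6 of 17 alternatives.

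Lists tied to platinum response were read against the 3.03% of all genes called in either direction, a share at which lists of this size have few or no calls. In the lists of Fanconi anemia and homologous recombination (53 genes), mismatch repair (7), metallothioneins (5), glutathione and NRF2 targets (52) and aldehyde dehydrogenases (17), 0 genes passed in either direction, and DESeq2 also called 0 in each. At an unadjusted p under 0.05 the first list had 3 higher and 4 lower genes, the second 2 and 1, the third 0 and 0, the fourth 10 and 5, and the fifth 3 and 4. Of 28 genes of nucleotide excision repair and translesion synthesis, POLI, a polymerase that copies past lesions, was higher. It had 8.12 and 7.44 CPM in parental libraries and 20.9 and 16.8 in the clone for the HPV− line, and 3.18 and 3.17 against 6.03 and 5.66 CPM for the HPV+ line (1.08, SE 0.18, adjusted p = 0.0143, kept under 12 of 17 alternatives). Of 39 apoptosis regulators CASP4, an inflammatory caspase, and HRK, a BH3-only protein, were higher. The call of CASP4 was kept under 6 of 17 alternatives, and its log2 fold change was smaller in the HPV− line (0.46) than in the HPV+ line (2.29, adjusted p of the difference 0.00306). HRK went from 0.534 and 0.631 to 1.56 and 1.75 CPM and from 12.2 and 12.6 to 18.7 and 25.5 CPM (1.10, adjusted p = 0.0207). Of 40 p53 targets GDF15, a secreted stress cytokine, was higher and SERTAD1 and SFN lower, with the calls of GDF15 and SFN kept under 8 of 17 and 6 of 17 alternatives.

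Of 43 R-loop regulators ALYREF, RNASEH2C and PIF1 were lower (6.98%, against 1.52% of all genes) and 0 higher. An unadjusted p under 0.05 was reached by 6 lower and 2 higher genes, and DESeq2 called 3 and 0. The list had a median log2 fold change of −0.08 (−0.26 in the HPV− and 0.08 in the HPV+ line). R-loops are RNA:DNA hybrids left by transcription. ALYREF, an mRNA export adaptor, had 159 and 134 CPM in parental libraries and 57.8 and 65.2 in the clone for the HPV− line, and 203 and 194 against 92.1 and 75.7 CPM for the HPV+ line (−1.25, SE 0.12, adjusted p = 0.0036). Its log2 fold change was nearly the same in the lines (−1.25 and −1.24). RNASEH2C, a subunit of RNase H2, went from 193 and 113 to 60.9 and 70 CPM and from 59.4 and 53.1 to 28.7 and 27.2 CPM (−1.12, adjusted p = 0.0116). USP11, a deubiquitinase, had 0.09 (SE 0.11, adjusted p = 0.628).

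Of 11 genes with RT-qPCR primers in the study, several of them picked there from changes within a line, 0 were called in both clones. CNGB1 and CLDN8 passed the test of the shared term (adjusted p = 0.00941 and 0.00253), but each from a change in 1 line. CNGB1 went from 0.214 and 0.406 to 30.3 and 21.4 CPM in the HPV− line and had 0 counts in the HPV+ clone. CLDN8 went from 4.36 and 4.34 to 127 and 116 CPM in the HPV+ line and had 0 counts in all 4 HPV− libraries. KRT6A had values of opposite direction, from 5388 and 4936 to 65 and 115 CPM in the HPV− line and from 67.6 and 65.7 to 501 and 447 CPM in the HPV+ line. The others, KRT13, LYPD1, CIITA, KRT16, IGFBP3, TGFB1, LY6D and CLDN1, had adjusted p from 0.0794 to 0.425.

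BCHE, butyrylcholinesterase, was among the largest decreases and had 4.17 and 5.59 CPM in parental libraries and 0.0504 and 0.0997 in the clone for the HPV− line, and 5.27 and 6.34 against 0.872 and 1.16 CPM for the HPV+ line (−3.70, SE 0.63, adjusted p = 0.0151). In the HPV− clone that is 3 counts against 202, a ratio of 59.8 (exact 95% counting interval 20.2 to 292). PCSK1N, an inhibitor of a prohormone convertase, had 2 counts against 100 in the HPV− line (ratio 44.4, interval 12 to 372) and went from 23.3 and 19.1 to 7.61 and 8.25 CPM in the HPV+ line. MALL, a raft protein, had 56.2 and 72.7 CPM in parental libraries and 2.57 and 8.13 in the clone for the HPV− line, and 12.6 and 12.7 against 4.6 and 2.36 CPM for the HPV+ line (−2.74, SE 0.49, adjusted p = 0.0181). DNER, a receptor with Delta/Notch-like repeats, fell from 8.06 and 9.42 to 0.856 and 3.14 CPM and from 3.22 and 3.59 to 0.238 and 0.349 CPM (−2.74, adjusted p = 0.0156). MPPED1 fell from 25.8 and 24.6 to 0.397 and 0.155 CPM in the HPV+ line and had 8 counts against 1 in the HPV− line, where the interval of the ratio (0.953 to 315) includes no change.

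YTHDC1, a nuclear reader of m6A in RNA, had 2.14 and 2.79 CPM in HPV− parental and 4.79 and 3.51 CPM in HPV+ parental libraries and 0 counts in all 4 resistant libraries. Against a floor of 3 counts per library it was at least 14.6-fold lower in the HPV− and at least 33.4-fold lower in the HPV+ line. The files hold 14.3% of its annotated transcripts, so the value covers a small part of the gene. H4C11, a histone H4 gene, went from 27.2 and 6.72 to 2.57 and 1.9 CPM in the HPV− line, and from 6.29 and 6.8 CPM to 0 counts in the HPV+ line (at least 52.7-fold lower). Histone H4 genes are near-identical copies, so its reads are uncertain.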

How the data were processed

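RNA from 8 libraries (Monarch total RNA kit, polyA library preparation, paired-end NovaSeq reads) was quantified per transcript by the authors with Salmon against GRCh38, per the labels. Neither the version of Salmon nor its annotation was named in the labels or methods. The deposited files hold estimated counts per transcript, which need not be whole, and TPM values, which the authors' quantification scaled for transcript length. TPM values were not tested and none is printed. Here 172550 of 187432 transcripts (92.1%) matched GENCODE 44 and were summed per gene, and rounded. Counts of unmatched transcripts (4.33 to 5.13% of a library) were left out.

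Genes were filtered with filterByExpr, scaled by TMM and tested with edgeR 4.0.16 (R 4.3.3, glmQLFit with robust estimation) on cell line and resistance over all 8 libraries, with Benjamini-Hochberg adjustment over 15221 genes. A fit with 1 coefficient per group gave the changes within a line and their difference. Every adjusted p comes from these edgeR models. Levels are TMM-scaled CPM, except those of cell type markers, which are per library total. Replicates correlated at 0.975 to 0.988 and differed by more than sampling noise. Named genes were, among genes called in both clones, the 12 largest changes in each direction at a mean of at least 1 CPM, up to 3 of smallest p per list and direction, the 4 smallest interaction p, and the genes with primers in the study. A few of these genes are not reported here. Members and lists were chosen with earlier results of these data known. Scripts were tested on simulated data. Alternatives were DESeq2 1.42.0, other scaling and filters, length and GC corrections (mgcv 1.9-3), other models and leaving out each library. Genes with all annotated transcripts, and counts within a line without each library, were added after seeing the data. Intervals of count ratios and floors cover counting error only.

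The promoters come from RefSeq (GRCh38.p14) and matched 11364 of the 15221 genes.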

Additional observations from a re-analysis of the deposited data

Results flagged for a closer look

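Of the 119 named genes, 33 had a change that differed between the lines at an adjusted p under 0.05 (edgeR, interaction). Each value below is the log2 fold change in the HPV+ clone minus that in the HPV− clone. Of these genes 24 were called in both clones, and 13 of them had the larger change in the HPV− and 11 in the HPV+ clone.

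Genes called higher in both clones were DLC1 (−2.57), RBMS3 (3.79), STC1 (3.84), COL5A2 (2.19), CDH1 (1.17), CASP4 (1.82) and SOX9 (1.497). A negative value marks a larger rise in the HPV− clone. The HPV+ value of STC1 rests on 1 count in the parental cells.

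Genes called lower in both clones were SFN (0.90), RPL24 (1.02), NDUFB9 (0.88), RPS26 (1.82), PKP1 (1.51), NOTCH3 (1.89), S100A4 (−1.88), EPHB3 (−0.74), NRG1 (1.29), KLF4 (−1.49), BMP2 (1.97), PCSK1N (4.05), HAS3 (−2.17), H2BC9 (2.84), KRT14 (3.29), BCHE (3.42) and H4C11 (−7.31). Here a negative value marks a larger fall in the HPV+ clone. The HPV− value of PCSK1N and BCHE rests on 2 and 3 counts in the clone, and the HPV+ value of H4C11 on 0 counts, so the size of these differences depends on how low counts were handled.

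Genes not called in both clones were CNGB1 (−8.52), CIITA (−2.80), CLDN1 (−3.19), IGFBP3 (−1.42), TGFB1 (1.02), KRT6A (8.67), LYPD1 (−5.76), KRT13 (−5.42) and KRT16 (6.97). CNGB1 had 0 counts in the HPV+ clone. KRT6A was lower in the HPV− clone and higher in the HPV+ clone, and LYPD1 the reverse, each past the adjusted threshold within both lines. With 2 libraries a group, no library could be examined for standing apart within its group.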

How the results depend on the processing

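The 229 higher and 232 lower genes were recounted under each alternative, and 0 of the recomputed values reversed direction. The counts stayed within 1.5 times with DESeq2 (312 and 280), relative log expression factors (239 and 226), upper-quartile factors (282 and 185), no filter (207 and 233), at least 5 CPM in 2 libraries (193 and 191), protein-coding genes (221 and 220), effective lengths as offset (164 and 196), the mean of the within-line contrasts (343 and 327), the shared term alone (279 and 290) and genes with every annotated transcript in the files (208 and 207). With effective lengths as offset, 121 of the 164 higher and 154 of the 196 lower genes were among the 229 and 232 of the main fit. The lists thus changed more than their counts. With a GC content and length trend taken off, lower genes numbered 146 and higher ones 204, and 128 and 169 were among the genes called without it. Without a minimum fold the counts were 650 and 920, and with the call made in each line on its own 74 and 91. When the test itself required a log2 fold change beyond 1 (edgeR's glmTreat), 4 and 3 genes passed, with 508 genes at an unadjusted p under 0.05. The cause of these shifts was not tested, beyond the stricter or looser threshold that defines the last 3.

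Labels give every group replicates 1 and 2. Correlations of the deviations of same-numbered libraries ran from −0.074 to 0.142, so the numbers do not pair the libraries, and with the replicate block the counts were 4 higher and 1 lower. The block was set within each line, so that fit had fewer residual degrees of freedom than the 5 of the main fit. Leaving out 1 library gave 74 to 175 higher and 94 to 340 lower genes. For the counts within a line the same ranges were 613 to 988 higher (923 with all libraries) and 567 to 1114 lower (795) in the HPV− clone, 240 to 538 higher (518) and 326 to 750 lower (700) in the HPV+ clone, and 1238 to 3276 genes (2546) whose change differed between the lines. In the fits that leave a group with 1 library, that library is assumed to vary like the others.

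Over the named genes, 1477 recomputed values stayed on their side of the threshold, 530 no longer passed and 2 newly passed (CIITA and LY6D, without replicate 2 of clone #35). Of 106 genes called, 5 kept the call under the 17 alternatives that refit every named gene, 27 lost it under the block alone, and 41 under the block or a left-out library alone. With 2 libraries a group, the spread between libraries limits these calls. So does the difference in change between the lines, which the shared fit counts as spread. Genes under 1 CPM rest on few counts.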

Other observations

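Genes outside the rule for named genes were looked at after their values were seen. Several of the genes lower in both clones assemble the respiratory chain or import proteins into mitochondria. SCO2, which loads copper into complex IV, had 30.6 and 18.8 CPM in parental libraries and 11.5 and 16.6 in the clone for the HPV− line, and 12.8 and 11.9 against 4.88 and 4.96 CPM for the HPV+ line (log2 fold change −1.06, SE 0.22, adjusted p = 0.0223). TIMM10, a chaperone of the space between the mitochondrial membranes, had 70.3 and 47.7 CPM in parental libraries and 17 and 23.9 in the clone for the HPV− line, and 44.2 and 36.5 against 16.7 and 17.6 CPM for the HPV+ line (−1.38, SE 0.18, adjusted p = 0.00726). TIMM8B, TOMM5, ROMO1, UQCC3, UQCC5, NDUFAF8, PET100 and FMC1 were lower too, with log2 fold changes from −1.56 to −1.07. ESRRA, a nuclear receptor that controls mitochondrial genes, went from 64.7 and 43.1 to 29.7 and 35 CPM and from 131 and 105 to 41.1 and 55.8 CPM (−1.01, adjusted p = 0.019). Most of these transcripts are short, as are those of the respiratory chain.

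Of 48 histone genes tested, also listed after their values were seen, 0 were higher and 7 lower in both clones (edgeR), against 1.5 and 1.52% of all genes. The lower ones were H4C11, H2AC13, H2BC9, H2AC14, H2AC20, H2AC16 and H2BC4. The 48 genes had a median log2 fold change of −0.89, with −0.32 in the HPV− and −1.20 in the HPV+ line, and 25 were below 0 in both lines. Their sums overlapped in the HPV− line, with 570.1 and 481.7 CPM in parental libraries against 450.6 and 518.7 in the clone. In the HPV+ line the sums were 364.6 and 379.8 against 175.8 and 136.7 CPM. Most histone transcripts lack a polyA tail and many are near-identical copies, so their counts in polyA libraries are uncertain.

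Among single genes, APOE, a lipid carrier, rose from 145 and 89.9 to 343 and 302 CPM and from 1.06 and 1.13 to 5.63 and 5.62 CPM (1.81, adjusted p = 0.00693). IDH1, a cytosolic source of NADPH, rose from 159 and 165 to 522 and 434 CPM and from 55.8 and 59.4 to 135 and 141 CPM (1.41, adjusted p = 0.00253). TXNIP and FOXO1 were higher by 1.46 and 1.30 on the log2 scale, and the lineage factor GATA6 by 1.38. HMGA2, a chromatin protein, fell from 108 and 124 to 29.8 and 42.6 CPM and from 22.3 and 20.1 to 9.36 and 15.1 CPM (−1.24, adjusted p = 0.0185). CDKN2A, which encodes the cell cycle inhibitor p16, fell from 124 and 56.5 to 35.7 and 36.9 CPM and from 419 and 316 to 175 and 203 CPM (−1.13, adjusted p = 0.0229). LMNA, which encodes lamins A and C, fell from 685 and 660.3 to 318 and 407 CPM and from 1034 and 1102 to 343 and 313 CPM (−1.30, adjusted p = 0.00982).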
